A study of Rattus norvegicus with 5 samples.

Results

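The 4 genes described here, Gata4, Nkx2-5, Mef2c and Tbx5, encode transcription factors of the heart muscle lineage. They were taken as 4 fixed Ensembl columns, ENSRNOG00000010708, ENSRNOG00000020532, ENSRNOG00000033134 and ENSRNOG00000001399 in that order, among 15077 genes listed in all 5 tables of the series. All 4 were present in each of the 5 tables. The list used no cutoff on a measured value, but it was chosen with earlier results of these data known. The question was how much of each factor was present in the different cells of a rat heart culture, by virus, by day and with an added inhibitor.

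The cultures were primary cells from the ventricles of wild type Sprague Dawley rats at postnatal day 2, a mixture of myocytes and non-myocytes by their label. An adenovirus carried either GFP, here the feature EGFP, or the human transcription factor TBX18, here the features hTBX18 and ZsGFP. The 5 groups were GFP at day 3, TBX18 at day 3, GFP at day 14, TBX18 at day 14, and TBX18 at day 14 with 0.2 µM A83-01, which blocks the kinase of TGF-beta receptors. The title of the A83-01 sample places it at day 14 while its treatment label says 3 days, so the length of exposure is not settled. All 5 groups had received a virus, and no culture without virus was analysed here. Each group was 1 library, so no test between groups was possible and no p-value is given. Whether a library came from 1 animal or from a pool is not given in the sources used here. The 95% intervals below cover counting error only.

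Gata4 encodes a zinc finger factor, Nkx2-5 a homeobox factor, Mef2c a MADS-box factor and Tbx5 a T-box factor. The 4 proteins bind each other and neighbouring DNA sites at genes of the contractile apparatus and of heart development. Gata4, Mef2c and Tbx5 together are the classic set for turning fibroblasts into myocyte-like cells. Nkx2-5 is a marker of working myocardium and is low in the embryonic sinus node region, where the T-box factor Tbx18 is active. TBX18 has been used to turn ventricular myocytes toward a pacemaker phenotype, the subject named in the title of the series.

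The libraries held 6424 to 8859 barcodes, with a median of 15610 to 28566 UMIs per barcode. UMIs are sequence tags by which each captured RNA molecule is counted once. After filtering, 34890 cells were kept and clustered without the 4 genes and without the virus features, and the clusters were joined into 2 compartments. The tables pair no gene name with an ID, so marker genes could not be read. Myocytes and stromal cells were therefore not named, and the compartments are given by number. EGFP set only their numbers. Compartment 1 was the one in which a larger share of cells carried EGFP in the day 3 GFP library. It held 58.9% and 51.5% of the cells with GFP and TBX18 at day 3, and 33.3%, 15.3% and 34.2% with GFP, TBX18 and A83-01 at day 14. EGFP had at most 1 UMI in a compartment of any TBX18 or A83-01 library, and the GFP libraries contained 0 UMIs of ZsGFP or hTBX18, so the transgenes matched the labels. Pairs of libraries shared 7 to 20 barcodes. The day 14 tables had been restricted to barcodes of 1997 to 5597 genes, unlike the day 3 tables, so day 14 and day 3 differ in filter and unit as well as in time.

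All 4 factors were higher in compartment 1 than in compartment 2 in every library, by margins that differed widely among the genes. Nkx2-5 stood at 47.1-fold to 77.6-fold higher in compartment 1 across the 5 libraries. Mef2c stood at 5.80-fold to 13.6-fold higher, and Gata4 at only 1.35-fold to 2.71-fold higher. Tbx5 had the widest span, from 74.1-fold in the GFP library at day 3 to 8.37-fold in the GFP library at day 14. Clusters were formed without these genes, but they were formed in the same cells, so the differences between compartments are a description.

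Nkx2-5 had the lowest share in compartment 2 in 4 of the 5 libraries, the exception being GFP at day 3, where Tbx5 was lower within overlapping intervals. In compartment 1 the level of Nkx2-5 was 20.5 CPM (counts per 1000000 UMIs, 95% interval 19.6 to 21.4) in the GFP library and 45.3 CPM (43.9 to 46.7) with TBX18 at day 3. At day 14 it was 59.3 CPM (56.7 to 62.0) with GFP, 70.4 CPM (66.8 to 74.2) with TBX18 and 36.7 CPM (34.98 to 38.4) with A83-01. The 5 intervals did not overlap, and the GFP library at day 3 was the lowest. In compartment 2 the levels were 0.319, 0.584, 1.08, 0.979 and 0.779 CPM in the same order, from only 25 to 105 UMIs per library, and neighbouring intervals overlapped. Compartment 2 thus held 1.29% to 2.12% of the compartment 1 level.

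Free RNA can enter a droplet, and a gauge of its part was taken from other genes. In each library the 20 genes of at least 100 CPM in compartment 1 that were lowest in compartment 2 still held 0.762% to 1.10% of their compartment 1 level there at the median. The highest of these 20 genes lay between 0.840% and 1.29%. The interval of the Nkx2-5 share reached into the range of these genes in the GFP library at day 3 (1.56%, 1.01 to 2.31) and in the day 14 TBX18 library (1.39%, 1.13 to 1.70). In the other 3 libraries it lay above. Whether free RNA or mixed droplets gave the Nkx2-5 UMIs of compartment 2 was not tested. The 20 genes were chosen after seeing the data and for their low share, so that lying above them is a description.

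Tbx5 differed from Nkx2-5 in compartment 2. In compartment 1 it was measured at 8.52 CPM (7.96 to 9.10) with GFP and 5.91 CPM (5.42 to 6.43) with TBX18 at day 3. At day 14 it was at 7.31 CPM (6.41 to 8.31) with GFP, 12.9 CPM (11.4 to 14.6) with TBX18 and 7.18 CPM (6.44 to 7.97) with A83-01. The TBX18 library was the lowest of the 5 at day 3 and the highest at day 14, and the GFP and A83-01 libraries at day 14 did not differ beyond counting error. In compartment 2 the level was 0.115 CPM (9 UMIs) and 0.292 CPM (25 UMIs) with GFP and TBX18 at day 3. At day 14 it was 0.874, 1.29 and 0.791 CPM with GFP, TBX18 and A83-01, from 56, 138 and 63 UMIs. As a share of the compartment 1 level this was 1.35% (0.615 to 2.58) and 4.94% (3.17 to 7.38) at day 3, and 11.9%, 9.94% and 11.03% at day 14. In the GFP library at day 3 the interval of this share reached into the range of the 20 lowest genes. In the other 4 libraries it lay above the range, where those genes reached at most 1.29%.

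The stretch of 250 bases before the annotated start is shown for Nkx2-5 and Tbx5, since none was matched to Gata4 or Mef2c. Nkx2-5 and Tbx5 also had the widest differences between compartments at day 3. These sequences are from RefSeq on the build GRCr8, whose promoter table matched 2 of the 4 genes; the count tables were made on another build, Rnor_6.0, per the submitters' processing notes. The Nkx2-5 stretch is chr10:16848350-16848599 on the plus strand, and the Tbx5 stretch is chr12:42395360-42395609 on the minus strand. Both strands were searched for the T-box core GGTGT, the GATA motif GATAA and the NKX2 core AAGTG. Capitals mark a match.
Nkx2-5: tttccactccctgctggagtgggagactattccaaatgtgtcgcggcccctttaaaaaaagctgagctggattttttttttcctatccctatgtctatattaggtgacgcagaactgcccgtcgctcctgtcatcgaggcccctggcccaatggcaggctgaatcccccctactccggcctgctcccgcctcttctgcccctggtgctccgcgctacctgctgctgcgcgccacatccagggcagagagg
Tbx5: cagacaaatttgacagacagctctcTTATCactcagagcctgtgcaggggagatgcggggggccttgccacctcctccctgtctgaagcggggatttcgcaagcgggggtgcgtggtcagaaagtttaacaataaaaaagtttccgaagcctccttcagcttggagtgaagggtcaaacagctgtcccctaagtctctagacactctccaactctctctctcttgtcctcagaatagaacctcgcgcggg
The Nkx2-5 stretch held none of the 3 motifs. The Tbx5 stretch held 1 GATA motif, TTATC on the strand shown, 225 to 221 bases before the start. Among 33469 RefSeq promoter stretches of this length, 36.6% held GGTGT, 23.5% held GATAA and 40.6% held AAGTG. A match is a description of letters and no sign of binding.

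Mef2c was present in both compartments. In compartment 1 it was at 71.5 CPM (69.9 to 73.2) with GFP and 117 CPM (114 to 119) with TBX18 at day 3. At day 14 it was at 119 CPM (116 to 123) with GFP, 188 CPM (182 to 194) with TBX18 and 142 CPM (139 to 146) with A83-01. The TBX18 library at day 3 and the GFP library at day 14 did not differ beyond counting error. The highest count in a single cell was 61 UMIs, in the GFP library at day 3, against at most 22 in any other library. In compartment 2 Mef2c was at 12.3 and 8.60 CPM at day 3 and at 17.1, 20.2 and 15.5 CPM at day 14, or 7.38% to 17.2% of the compartment 1 level.

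Gata4 was the factor that the compartments shared most. In compartment 1 it was at 71.4 CPM (69.7 to 73.0) and 84.9 CPM (82.96 to 86.8) with GFP and TBX18 at day 3, and at 102, 136 and 119 CPM with GFP, TBX18 and A83-01 at day 14. No neighbouring intervals overlapped in this order of levels. In compartment 2 it was at 33.8 CPM (32.5 to 35.1) and 39.4 CPM (38.1 to 40.7) at day 3. At day 14 it was at 53.0 CPM (51.2 to 54.8) with GFP, 50.01 CPM (48.7 to 51.4) with TBX18 and 87.7 CPM (85.6 to 89.8) with A83-01. The A83-01 library stood apart from the other 4, and its compartments were the closest to each other, at 73.8% against 36.8% to 52.1%.

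**Figure D1:**
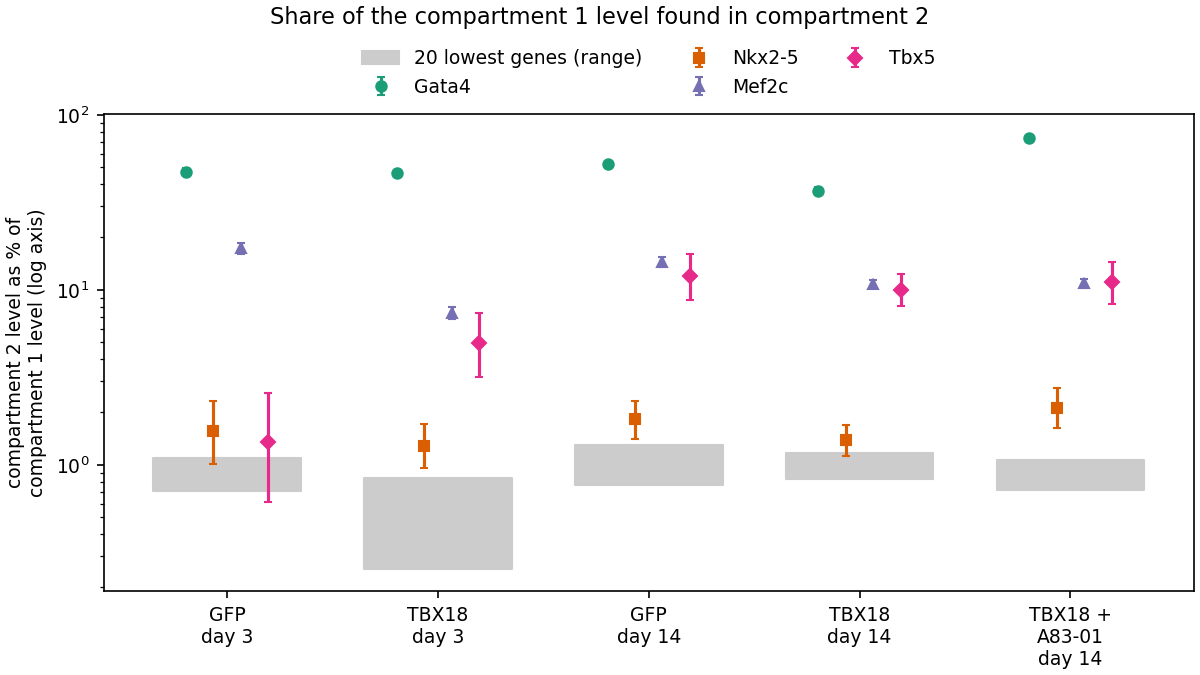
Level of each gene in compartment 2 as a percent of its level in compartment 1 (y axis, log scale) for the 5 libraries (x axis), with exact 95% intervals as bars; the grey band spans the 20 genes with the lowest such share. Gata4 lies at 36.8% to 73.8%, Mef2c at 7.38% to 17.2% and Nkx2-5 at 1.29% to 2.12%, while Tbx5 lies at 1.35% and 4.94% at day 3 and near Mef2c at day 14.

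**Figure D2:**
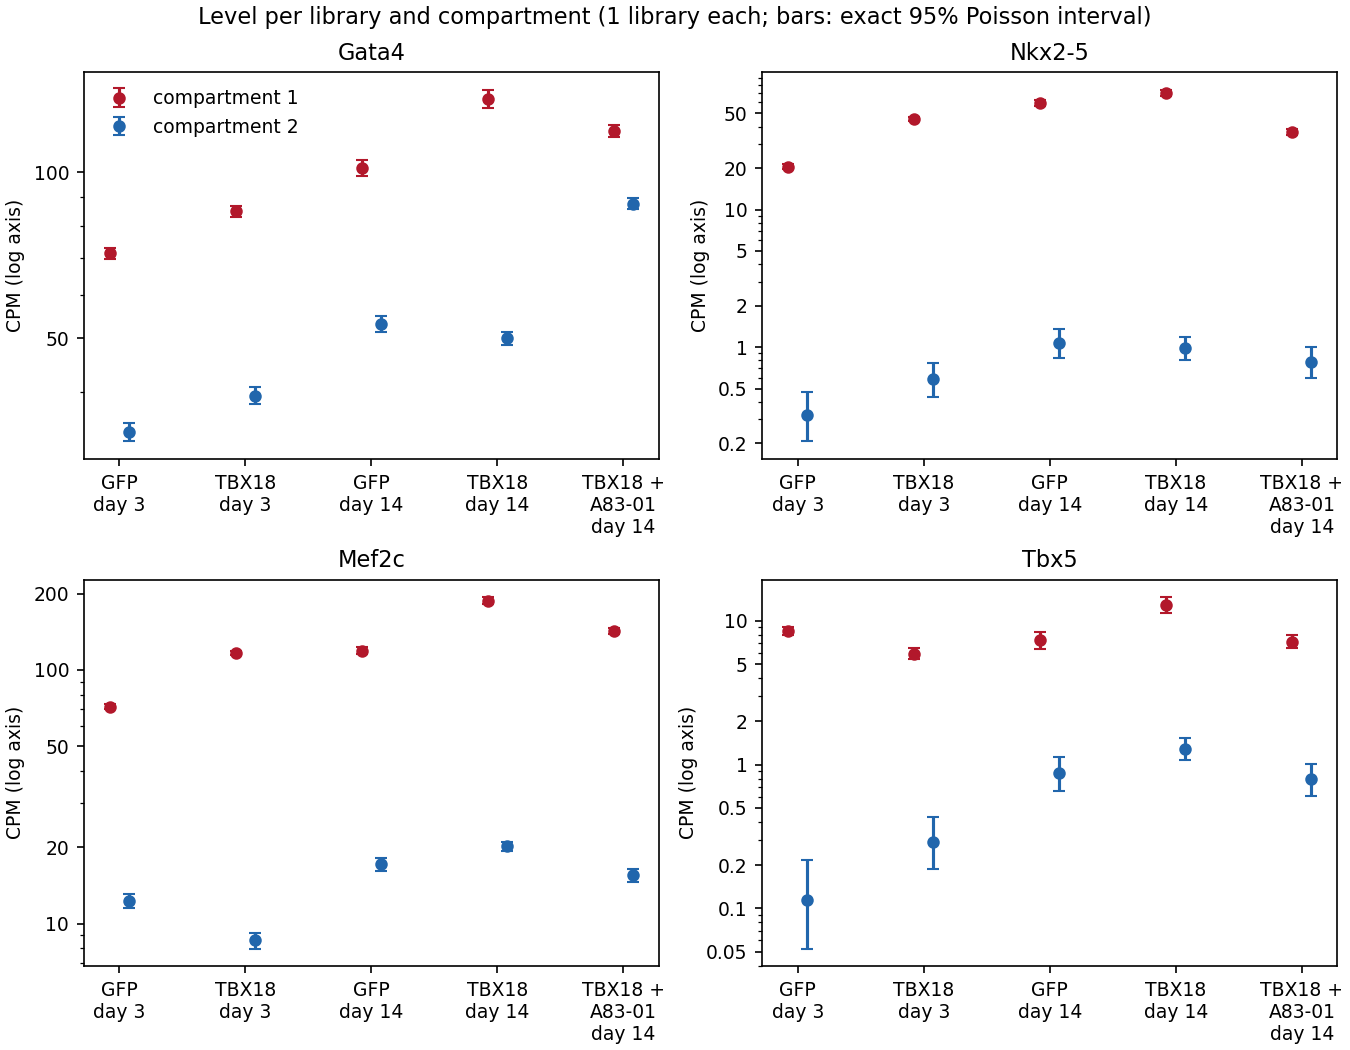
CPM of each gene (y axis, log scale, a separate scale for each gene) in compartment 1 (red) and compartment 2 (blue) of the 5 libraries (x axis), with exact 95% Poisson intervals as bars. The red points lie above the blue points in every library, and the Gata4 point of compartment 2 is highest with A83-01, at 87.7 CPM.

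TBX18 was compared with GFP at day 3 to ask what the factor does to the heart program soon after delivery. In compartment 1 Nkx2-5 was 2.21-fold higher with TBX18 (log2 ratio 1.14, 1.07 to 1.22) and Mef2c was 1.63-fold higher (0.70, 0.66 to 0.75). Gata4 was 1.19-fold higher (0.25, 0.20 to 0.30). Tbx5 was lower with TBX18, by a log2 ratio of -0.53 (-0.69 to -0.37). Nkx2-5 was the only one of the 4 past 2-fold, in a comparison where 6.11% of 8380 genes were at least 2-fold higher and 4.8% at least 2-fold lower. Mef2c joined it at 1.5-fold, where 13.3% of genes were higher and 13.4% lower. The median log2 ratio of the 4 factors was 0.48, beside -0.05 over all genes tested.

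Compartment 2 differed from compartment 1 at day 3. Mef2c was lower with TBX18 there, at 8.60 against 12.3 CPM (log2 ratio -0.52, -0.66 to -0.38), and Gata4 was higher by 0.22 (0.15 to 0.29). Neither was past 2-fold or 1.5-fold, where 1.29% and 3.17% of 8899 genes were higher and 1.22% and 6.05% lower. Mef2c had a lower ratio than all but 7.62% of genes, and Gata4 had a higher ratio than 88.9% of them. Nkx2-5 and Tbx5 lay under the minimum mean of 5 CPM that a gene needed to enter this count in compartment 2. Their ratios were 0.87 (0.15 to 1.62) and 1.34 (0.20 to 2.63), from 25 against 50 and from 9 against 25 UMIs. Neither held beyond counting error under other cell filters. Without doublet removal they were 0.56 (-0.06 to 1.19) and 0.64 (-0.31 to 1.63), and with the day 14 limits on genes and UMIs 0.49 (-0.25 to 1.23) and 0.82 (-0.49 to 2.21).

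At day 14 all 4 factors were higher with TBX18 than with GFP in compartment 1, each by less than 2-fold. Tbx5 was 1.77-fold higher (log2 ratio 0.82, 0.56 to 1.08), Mef2c 1.57-fold (0.65, 0.59 to 0.72), Gata4 1.33-fold (0.42, 0.34 to 0.49) and Nkx2-5 1.19-fold (0.25, 0.15 to 0.35). None of the 4 was past 2-fold, beside 4.05% of genes at least 2-fold higher and 1% at least 2-fold lower. Mef2c and Tbx5 were past 1.5-fold, as were 12.4% of genes in that direction, while 2.85% were at least 1.5-fold lower. The median log2 ratio of the 4 factors was 0.53, beside 0.20 over all genes tested. Scaling by the median of ratios lowered every value of this comparison by 0.20, which put Nkx2-5 at 0.049, Gata4 at 0.22 and Mef2c at 0.46. The 2 libraries also differed in their clusters. Cluster 9 held 1002 of 1208 compartment 1 cells with TBX18 and 392 of 2019 with GFP, while cluster 10 held 1299 with GFP. Within cluster 9, Tbx5 was at 13.8 CPM with either virus, and Gata4 was lower with TBX18, at 137 against 150 CPM. Nkx2-5 and Mef2c were higher with TBX18 there, at 75.9 against 55.3 and 191 against 161 CPM. In the smaller cluster 19, Gata4 was at 117 CPM with TBX18 against 107 CPM with GFP, and Tbx5 at 9.28 against 4.94 CPM. In cluster 24 Gata4 was at 141 against 134 CPM and Tbx5 at 10.8 against 8.20 CPM. The intervals of Gata4 and Tbx5 overlapped in each of these clusters. Nkx2-5 and Mef2c were higher with TBX18 in clusters 19 and 24 as well. The part of cluster make-up was not tested. In compartment 2 Mef2c was at 0.24 (0.13 to 0.34), Gata4 at -0.08 (-0.15 to -0.02), Nkx2-5 at -0.14 (-0.59 to 0.32) and Tbx5 at 0.56 (0.10 to 1.03), or 0.42 (-0.03 to 0.88) without doublet removal. There 2.89% of genes were at least 2-fold higher and 0.753% at least 2-fold lower, and 8.05% were at least 1.5-fold higher and 2.74% lower. Gata4 and Mef2c were in none of these counts.

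Levels over whole cultures gave another order, and the compartments differed in size. Over all kept cells Nkx2-5 was at 20.5 CPM with GFP and 11.9 CPM with TBX18 at day 14, the reverse of their order within compartment 1. Compartment 1 held 96.5% and 93.1% of the Nkx2-5 UMIs in these libraries but 33.3% and 15.3% of their cells. At day 3 the whole-culture levels of Nkx2-5 were 11.7 CPM with GFP and 23.5 CPM with TBX18, in the same order as within the compartment. For Mef2c the whole-culture levels at day 14 were 51.3 and 46.6 CPM with GFP and TBX18, against 119 and 188 CPM within compartment 1. For Gata4, of which compartment 1 held 49.0% and 33.7% of the UMIs in these libraries, they were 69.3 and 63.5 CPM.

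The A83-01 library was set against TBX18 alone at day 14, to ask what inhibition of TGF-beta receptors adds. This comparison uses the same TBX18 library as the one above, so the values stand side by side and are not independent. The clearest difference was in compartment 2, where Gata4 was 1.75-fold higher with A83-01 (log2 ratio 0.81, 0.76 to 0.86). It was past 1.5-fold, as were 8.63% of 8899 genes in that direction, and not past 2-fold, as were 3.19%. In the other direction 7.05% of genes were past 2-fold and 16.6% past 1.5-fold. Its ratio was above that of 95.1% of genes. Mef2c was lower there, at -0.38 (-0.48 to -0.28), and Tbx5 was at -0.70 (-1.16 to -0.26) on 63 against 138 UMIs. Nkx2-5, at -0.33 (-0.81 to 0.14), did not differ beyond counting error.

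In compartment 1 the levels with A83-01 were lower for all 4 factors when scaled by library total. Nkx2-5 was at 36.7 against 70.4 CPM (log2 ratio -0.94, -1.04 to -0.84) and Tbx5 at 7.18 against 12.9 CPM (-0.85, -1.09 to -0.61). Mef2c had a ratio of -0.40 (-0.45 to -0.34) and Gata4 of -0.19 (-0.26 to -0.13). None was past 2-fold, beside 12.8% of 8379 genes at least 2-fold lower and 0.621% at least 2-fold higher. Nkx2-5 and Tbx5 were at least 1.5-fold lower, as were 36.1% of genes, while 1.77% were at least 1.5-fold higher. The median gene was at -0.43, and scaling by the median of ratios moved all values by 0.38. Nkx2-5 was then at -0.56 and Tbx5 at -0.47, still lower, while Mef2c was at -0.020 and Gata4 turned to 0.18. Of all genes, 14.98% had a lower ratio than Nkx2-5 and 18.7% a lower ratio than Tbx5.

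**Figure D3:**
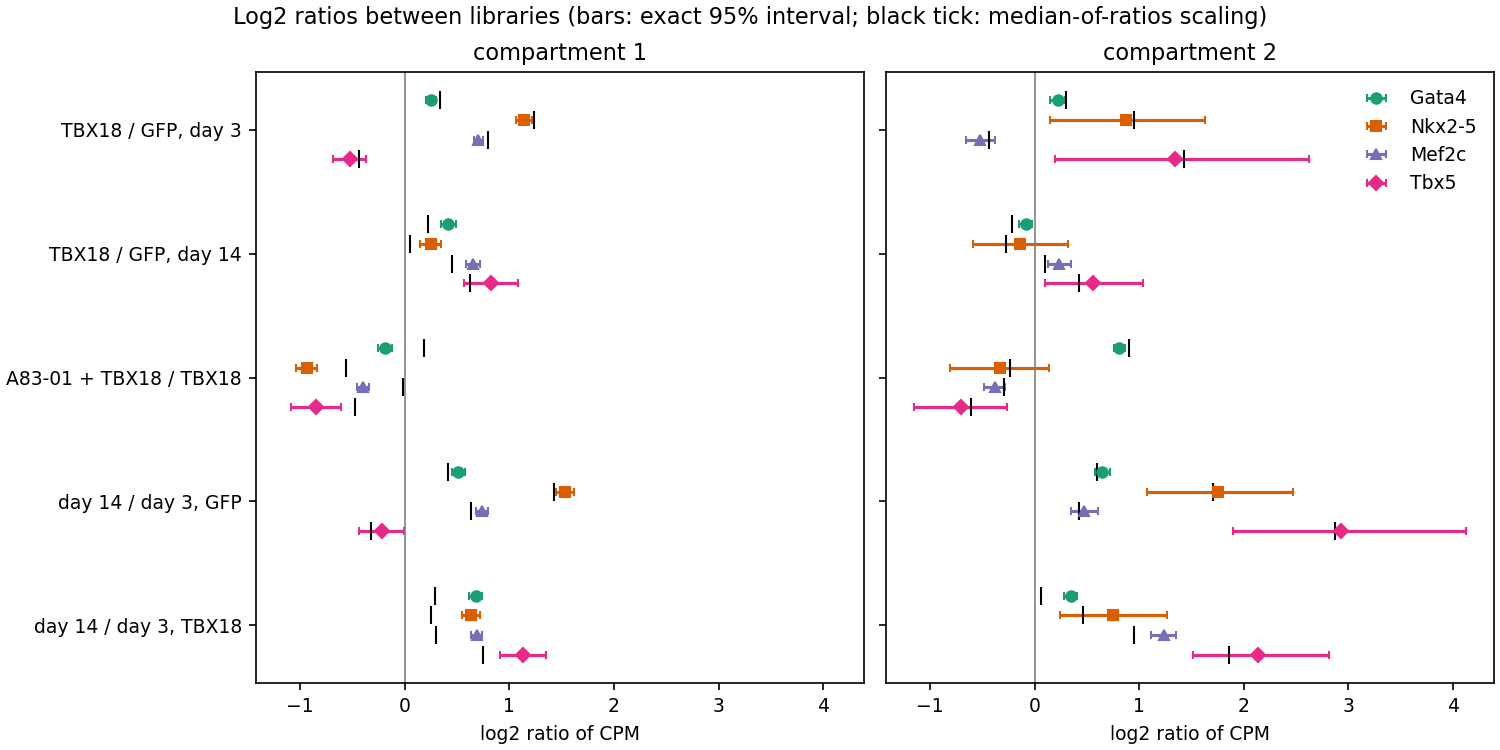
Log2 ratio of CPM (x axis) for the 4 genes in 5 comparisons (y axis) in compartment 1 (left) and compartment 2 (right), with exact 95% intervals as bars and the value under median-of-ratios scaling as a black tick. With A83-01 over TBX18, Gata4 lies at 0.81 in compartment 2 and at -0.19 in compartment 1, where its tick lies on the other side of 0.

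The later and earlier cultures with each virus were compared next, in the same libraries as above. In compartment 1 of the GFP libraries Nkx2-5 was 2.89-fold higher at day 14 (log2 ratio 1.53, 1.44 to 1.62), Mef2c 1.67-fold (0.74, 0.68 to 0.79) and Gata4 1.43-fold (0.51, 0.45 to 0.57). Tbx5 was at -0.22 (-0.43 to -0.01), an interval that held 0 at clustering resolution 0.5 and with the day 14 limits on genes and UMIs. Nkx2-5 was the factor past 2-fold, beside 15.2% of genes higher and 6.01% lower. Mef2c was also past 1.5-fold, beside 29% higher and 14.2% lower. In the TBX18 libraries Tbx5 was the factor past 2-fold in compartment 1, at 1.13 (0.91 to 1.35), where 20.1% of genes were higher and 2.34% lower. Gata4, Nkx2-5 and Mef2c were at 0.68, 0.64 and 0.69 there. Median-of-ratios scaling shifted this comparison by 0.39, which put Tbx5 at 0.75, no longer past 2-fold, and the other 3 at 0.29, 0.25 and 0.30. All 4 were at least 1.5-fold higher, as were 40.6% of genes, while 6.12% were at least 1.5-fold lower.

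In compartment 2 the levels at day 14 were also higher. With GFP, Gata4 was at 0.65 (0.57 to 0.72) and Mef2c at 0.48 (0.35 to 0.60), neither of them past 2-fold, beside 21.4% of genes higher and 9.1% lower. Gata4 was past 1.5-fold, beside 36.1% higher and 20.2% lower. With TBX18, Mef2c was past 2-fold, at 1.23 (1.11 to 1.36), and Gata4 was at 0.34 (0.28 to 0.41), beside 30.6% of genes higher and 5.81% lower. After median-of-ratios scaling Mef2c was at 0.95, no longer past 2-fold, and Gata4 at 0.060. At 1.5-fold these shares were 46.3% and 14.5%, and Mef2c alone was counted. Tbx5 had ratios of 2.93 (1.90 to 4.13) with GFP and 2.14 (1.52 to 2.82) with TBX18, and Nkx2-5 of 1.75 (1.07 to 2.47) and 0.75 (0.25 to 1.26), the last of which was 0.51 (-0.04 to 1.09) with the day 14 limits. Both rested on few UMIs and lay under the minimum level for the count. The 2 days differ in cell filter, and with the day 14 range of gene and UMI numbers applied to day 3 each of these ratios kept its sign.

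At the level of single cells, most carried few UMIs of any of the 4 genes. Each cell was thinned to 5000 UMIs so that shares could be compared across depths, which left out 127 and 90 shallower cells of compartment 1 and 47 and 45 of compartment 2 at day 3, and at most 5 in a group at day 14. A UMI of Nkx2-5 was found in 9.77% (8.91 to 10.7) of compartment 1 cells with GFP and 19.5% (18.1 to 21.0) with TBX18 at day 3. At day 14 the shares were 23.9%, 29.0% and 17.6% with GFP, TBX18 and A83-01. In compartment 2 they were 0.226% to 0.464%, from 7 to 31 cells per library. No cell type known to lack Nkx2-5 could be picked without marker genes, so these low shares may be background. Without thinning the shares in compartment 1 were 35.2%, 62.7%, 58.0%, 61.8% and 48.6%. The unthinned median depths were 22388, 29740, 15126, 15973 and 19476 UMIs in compartment 1, and 23595, 27350, 15451, 15284 and 16402 in compartment 2.

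The other factors followed their levels. After thinning, Gata4 was found in 28.5% to 45.6% of compartment 1 cells, with the lowest share for GFP at day 3 and the highest for TBX18 at day 14. In compartment 2 it was found in 13.4% and 18.0% of cells at day 3, in 21.9% and 21.6% with GFP and TBX18 at day 14, and in 34.3% (32.9 to 35.7) with A83-01. Mef2c was found in 28.0% to 57.0% of compartment 1 cells and 3.82% to 9.03% of compartment 2 cells. Tbx5 was found in 2.59% to 6.54% of compartment 1 cells. In compartment 2 its share was 0.0323% (1 cell) and 0.103% (3 cells) at day 3 and 0.426% to 0.659% at day 14.

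The number of the 4 factors seen in a cell followed the same order. In compartment 1, 14.8% of thinned cells with GFP and 24.5% with TBX18 had at least 2 of the 4 genes at day 3. No cell of the TBX18 library at day 3 had all 4 after thinning, out of 3045 cells, which allows a share of up to 0.0985% of cells with a UMI of each at this thinned depth. Without thinning, 9.70% of the compartment 1 cells of this library had all 4. At day 14, 9.11% of compartment 1 cells with TBX18 had 3 of the genes and 0.828% had all 4. Cells with none of the 4 made up 45.6%, 35.9%, 26.8%, 15.5% and 23.9% of compartment 1 in the order of the libraries. In compartment 2 they made up 60.6% with A83-01 and 70.6% to 81.2% in the other 4 libraries.

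Gata4, Mef2c and Tbx5 were found together in 0.343% to 1.82% of compartment 1 cells after thinning, and in at most 0.0299% of compartment 2 cells. For compartment 1 this was 0.909 to 1.61 times the product of the 3 separate shares. It rested on only 11 to 22 cells per library, and in each library the interval of the share held the product. In compartment 1 Gata4 and Nkx2-5 were found together 1.17 and 1.22 times as often as the product of their shares with GFP and TBX18 at day 3. At day 14 this was 1.02, 0.996 and 1.13 times with GFP, TBX18 and A83-01. These ratios rest on cells of single libraries and are given as a description.

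**Figure D4:**
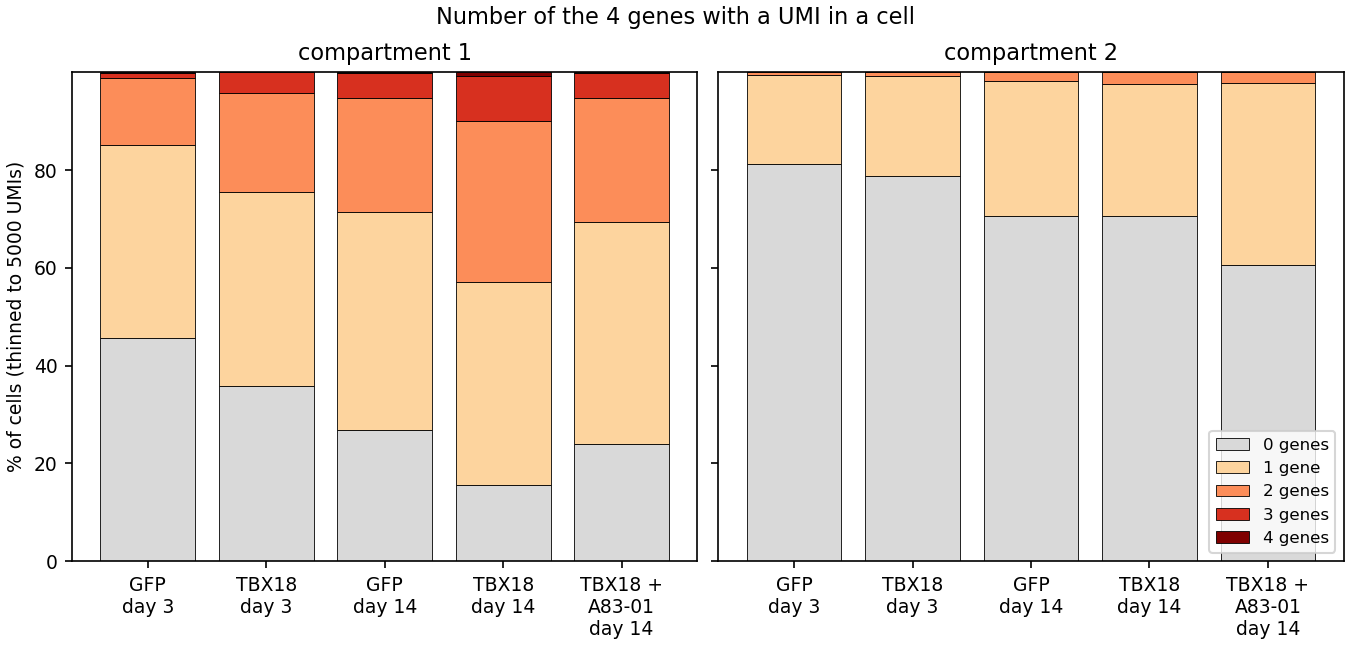
Percent of cells (y axis) with 0 to 4 of the genes Gata4, Nkx2-5, Mef2c and Tbx5 detected, after thinning to 5000 UMIs, for the 5 libraries (x axis) in compartment 1 (left) and compartment 2 (right). Cells with none of the 4 are fewest in compartment 1 of the TBX18 library at day 14, at 15.5%, and most in compartment 2 of the GFP library at day 3, at 81.2%.

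Within the TBX18 library at day 3, cells of compartment 1 with many transgene UMIs had lower levels of all 4 factors. The 365 cells with 5 or more UMIs of hTBX18 and ZsGFP were set beside the 1739 cells with 0, a split chosen after seeing the data. Gata4 was at 32.7 CPM (29.4 to 36.3) against 96.8 CPM (94.0 to 99.6), or 2.96-fold lower. Nkx2-5 was at 22.1 CPM (19.4 to 25.1) against 47.5 CPM (45.6 to 49.5), or 2.15-fold lower. Mef2c was at 61.6 against 121 CPM, and Tbx5 at 3.24 against 6.31 CPM, with log2 ratios of -0.97 (-1.09 to -0.86) and -0.96 (-1.51 to -0.45). Gata4 and Nkx2-5 were past 2-fold, as were 10.5% of 8380 genes in that direction, while 5.27% were at least 2-fold higher. Of all genes, 3.95% had a lower ratio than Gata4, 8.85% than Nkx2-5, 11.2% than Mef2c and 11.3% than Tbx5.

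The steps between these ends differed among the genes. Gata4 was at 91.6 CPM in the 590 cells with 1 transgene UMI and at 76.1 CPM in the 441 cells with 2 to 4, the first within counting error of the cells with 0 and the second under them. Nkx2-5 was at 52.0 and 47.2 CPM and Mef2c at 132 and 124 CPM in the same cells. Neither was lower beyond counting error than in cells with 0 transgene UMIs. With 1 transgene UMI both stood higher than with 0. Mef2c was at 132 CPM (127 to 138) against 121 CPM (118 to 124), and Nkx2-5 at 52.0 CPM (48.8 to 55.5) against 47.5 CPM (45.6 to 49.5). The GFP library at day 3 showed no fall beyond counting error. Its 598 cells with 5 or more EGFP UMIs had Gata4 at 72.1 against 68.8 CPM in its 2069 cells with 0, and Nkx2-5 at 19.8 against 20.2 CPM. Its log2 ratios were 0.07, -0.03, 0.28 and 0.11 for Gata4, Nkx2-5, Mef2c and Tbx5, beside a median of 0.11 over all genes, with 0.728% of genes at least 2-fold higher and 0.179% lower. Only the interval of Mef2c (0.18 to 0.37) excluded 0, at 79.6 against 65.6 CPM. These splits were not matched on depth. Cells with 0 and with 5 or more transgene UMIs had medians of 19827 and 28525.5 UMIs with GFP, and 28368 and 31518 with TBX18. The difference between the libraries was not tested, since each is 1 library and the transgenes differ.

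**Figure D5:**
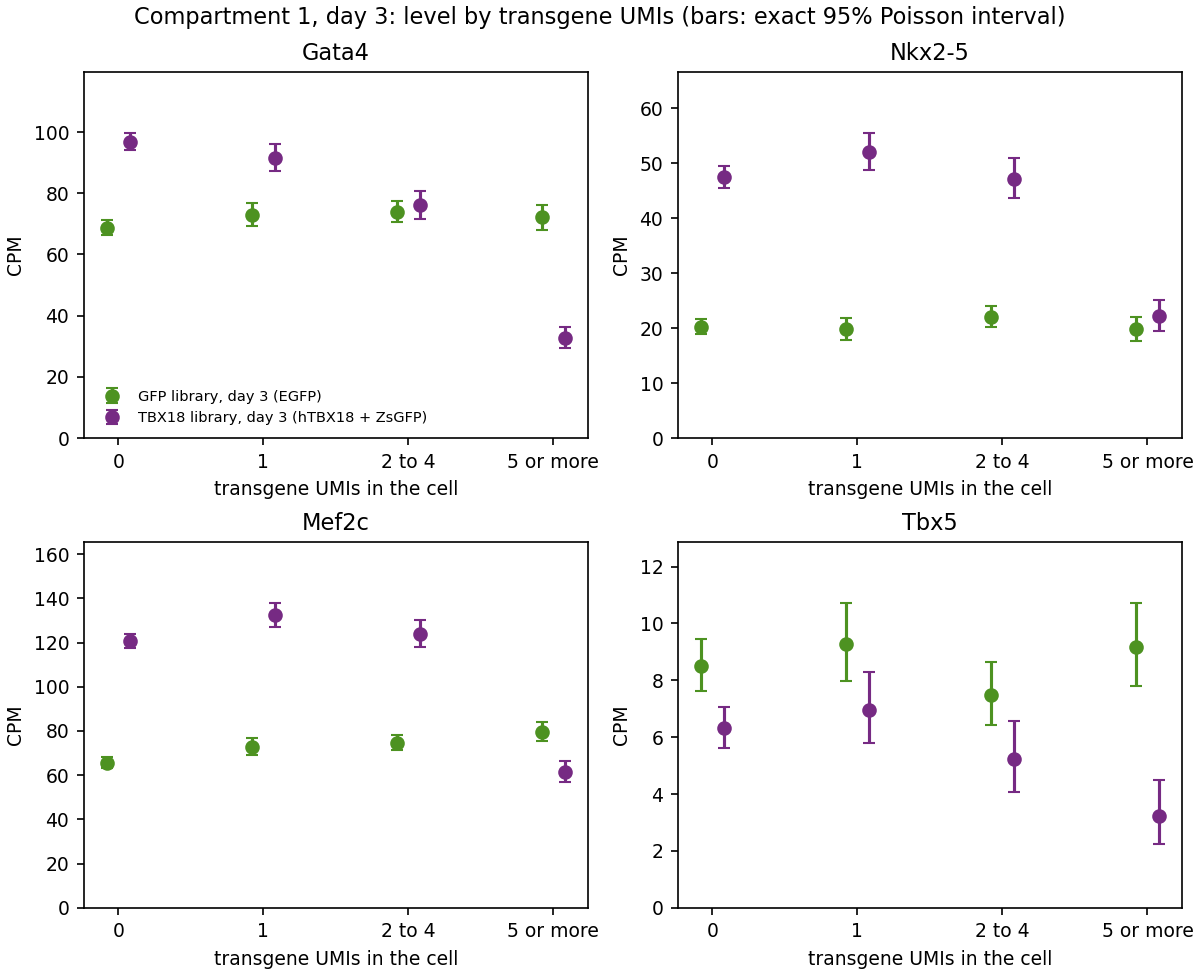
CPM of each gene (y axis) in compartment 1 cells of the GFP library (green) and TBX18 library (purple) at day 3, by the number of the cell's own transgene UMIs (x axis), with exact 95% Poisson intervals as bars. The purple points are lowest at 5 or more UMIs, for Gata4 at 32.7 CPM beside 96.8 CPM at 0, while the green Gata4 points lie between 68.8 and 73.9 CPM.

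Much of this difference lay in 1 cluster. Cluster 16 held 418 cells of this library, and 87.3% (83.7 to 90.4) of them had a transgene UMI, at 451 CPM of hTBX18 and ZsGFP together. Of the 365 cells with 5 or more transgene UMIs, 236 were in this cluster, with Gata4 at 11.8 CPM (9.30 to 14.9), Nkx2-5 at 8.32 CPM and Mef2c at 25.3 CPM. The other 129 such cells had Gata4 at 61.4 CPM (54.4 to 69.1), still under the 98.2 CPM (95.3 to 101.1) of cells outside the cluster with 0 transgene UMIs. For Nkx2-5 the values outside the cluster were 41.2 CPM (35.5 to 47.5) against 48.2 CPM (46.2 to 50.2). For Mef2c they were 112 against 122 CPM and for Tbx5 4.84 against 6.32 CPM. These genes were thus also lower in value, with separate intervals that overlapped. No interval of the ratio was computed here, and overlap alone does not show that the levels were equal. Inside the cluster, the 53 cells with 0 transgene UMIs had Gata4 at 46.9 CPM (35.9 to 60.2), Nkx2-5 at 23.8 CPM (16.2 to 33.8) and Mef2c at 70.7 CPM (57.0 to 86.7), all under the cells outside it. Tbx5 was at 6.15 CPM (2.66 to 12.1) there, from 8 UMIs, which did not differ beyond counting error from the 6.32 CPM outside. A cell with 0 transgene UMIs at this depth may still hold the virus.

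The cells with 5 or more transgene UMIs lowered the library's own levels. Without them in both libraries, TBX18 over GFP at day 3 in compartment 1 gave log2 ratios of 0.37 for Gata4, 1.23 for Nkx2-5, 0.83 for Mef2c and -0.42 for Tbx5. All 4 directions were those found with all cells. In cells with 0 transgene UMIs, Nkx2-5 was at 47.5 CPM with TBX18 against 20.2 CPM with GFP, and Gata4 at 96.8 against 68.8 CPM. Both differences were thus present in cells without a detected transgene.

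At day 14 transgene UMIs were few with TBX18, and cells were split only by their presence. In 189 cells with and 189 without a UMI, matched on depth, Nkx2-5 was at 92.6 against 71.8 CPM (log2 ratio 0.37, 0.13 to 0.61) and Mef2c at 222 against 185 CPM (0.27, 0.11 to 0.42). Gata4 and Tbx5 had ratios of 0.10, with intervals that included 0. With A83-01, in 332 cells of each kind, Nkx2-5 was at 0.30 (0.05 to 0.55), Mef2c at 0.19 (0.07 to 0.32) and Gata4 at -0.21 (-0.36 to -0.07). With GFP, in 797 cells of each kind, Nkx2-5 was at -0.01 (-0.16 to 0.13) and Mef2c at -0.14 (-0.25 to -0.04). The GFP intervals of Gata4 and Tbx5 included 0. With at least 2 transgene UMIs in place of any, Mef2c with A83-01 turned to -0.21 (-0.42 to 0.00) and Nkx2-5 was at 0.14 (-0.27 to 0.56), while Gata4 stayed lower, at -0.32 (-0.57 to -0.07). The same cut put Nkx2-5 with TBX18 at 1.10 (0.68 to 1.53) and Mef2c at 0.19 (-0.04 to 0.43). At day 3 with TBX18, the matched comparison by any transgene UMI, in 1267 cells of each kind, gave -0.46 (-0.53 to -0.38) for Gata4, -0.17 for Nkx2-5, -0.14 for Mef2c and -0.20 (-0.48 to 0.08) for Tbx5.

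The levels also differed among clusters within a compartment. Over the 14 clusters of compartment 1 with at least 100 cells, Gata4 ranged from 19.6 CPM in cluster 16 to 141 CPM in cluster 20, with a median of 89.0 CPM. Nkx2-5 ranged from 3.44 CPM in cluster 25, whose cells had a median of only 3573 UMIs, to 69.4 CPM in cluster 9. Mef2c ranged from 34.4 to 214 CPM and Tbx5 from 2.19 to 13.8 CPM. Over the 13 such clusters of compartment 2, Gata4 ranged from 2.27 to 87.0 CPM and Mef2c from 6.09 to 63.7 CPM, while Nkx2-5 stayed at or under 2.19 CPM. Many clusters held cells of mostly 1 library, so a difference between clusters may be one between libraries.

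The patterns of the 4 factors over the 10 profiles of library and compartment were also compared with one another and with all genes. Pearson's r of log2(CPM + 1) was 0.98 between Nkx2-5 and Mef2c, 0.97 between Mef2c and Tbx5 and between Nkx2-5 and Tbx5, and 0.83 to 0.86 between Gata4 and the other 3. Many genes had an r as high. Among 9024 genes, Mef2c ranked 79 in likeness to Nkx2-5 and Nkx2-5 ranked 35 in likeness to Mef2c. In likeness to Gata4 the other 3 factors ranked 452 to 764. With the mean of each compartment subtracted, r was 0.76 between Nkx2-5 and Mef2c and 0.44 between Nkx2-5 and Tbx5. Mef2c then ranked only 905 in likeness to Nkx2-5, and Nkx2-5 ranked 1743 in likeness to Mef2c. Tbx5 ranked 4387 in likeness to Nkx2-5, near the middle of all genes. The gene with the most similar pattern was ENSRNOG00000046769 for Gata4 (r 0.97), ENSRNOG00000022099 for Nkx2-5 (r 1.00), ENSRNOG00000008443 for Mef2c (r 0.99) and ENSRNOG00000013517 for Tbx5 (r 0.99), among 9024 genes. The 10 profiles share libraries in pairs, and the difference between compartments enters each r. With the compartment means subtracted, r was 0.58 to 0.68 between Gata4 and the other 3, which ranked 1876 to 3054 in likeness to Gata4. The values are a description.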

How the data were processed

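Single-cell RNA was measured in 5 libraries, 1 per group, and depth per barcode is given above. The reads were aligned with STAR 2.7.8a and processed in Partek on Rnor_6.0, per the submitters' processing notes. The deposited day 3 values are estimated counts of UMIs per gene and cell, judging from the values. The deposited day 14 values are on a log2 scale, as log2(CPM + 1) per cell, since the sums lay between 999991 and 1000009 once the log was undone. UMI counts were recovered from them, and in each of the 5 libraries 99.7% of values were whole within 0.05. Sums were rounded for exact intervals.

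Barcodes with at least 500 genes were kept and the top 6% of Scrublet scores left out, since its own threshold marked as few as 0% of a library. Clustering used scanpy 1.11.5 and leidenalg 0.10.2 with 2000 variable genes, 30 components, 20 neighbours and resolution 1, without the 4 genes and the virus features. Clusters were joined by average linkage into 2 compartments, and 52 cells (0.149%) were left unplaced. Levels are UMIs of a gene over all UMIs of the 15077 shared genes, with exact Poisson intervals. Ratios carry exact conditional intervals, and shares exact Clopper-Pearson intervals. A gene entered the counts of genes past 2-fold with a mean of at least 5 CPM over the 5 libraries of its compartment. Scripts were tested on simulated data.

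Of 17060 Ensembl IDs, 0 matched the RefSeq gene table, so the planned marker lists, the lists of other cardiac factors and of target genes, and cell classes named by markers were not run, and compartments took their place. The 4 names come from the choice of members. The members, lists and splits were chosen with earlier results of these data known. The 4 genes are always named, and for each the gene with the highest Pearson's r over the 10 profiles among genes of at least 5 CPM.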

Additional observations from a re-analysis of the deposited data

Results flagged for a closer look

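Several comparisons pointed in opposite directions in 2 sets of cells. Each is 1 library against 1 library, and the difference between the directions was not tested. For TBX18 over GFP in compartment 2, the log2 ratio of Mef2c was -0.52 at day 3 and 0.24 at day 14, and that of Gata4 was 0.22 and -0.08. In compartment 1 the ratio of Tbx5 was -0.53 at day 3 and 0.82 at day 14. For day 14 over day 3 in compartment 1, Tbx5 was at -0.22 with GFP, an interval that held 0 at clustering resolution 0.5, and at 1.13 with TBX18.

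Other pairs lay in the 2 compartments of the same libraries. With TBX18 over GFP at day 3, Mef2c was at 0.70 in compartment 1 and at -0.52 in compartment 2, and Tbx5 at -0.53 and 1.34. The last value rests on 9 against 25 UMIs and was 0.64 (-0.31 to 1.63) without doublet removal and 0.82 (-0.49 to 2.21) with the day 14 limits on genes and UMIs, so the opposite direction was not beyond counting error there. At day 14 Gata4 was at 0.42 and -0.08. With A83-01 over TBX18, Gata4 was at -0.19 in compartment 1 and at 0.81 in compartment 2, and median-of-ratios scaling turned the first of these to 0.18. For day 14 over day 3 with GFP, Tbx5 was at -0.22 and 2.93, the latter from 9 and 56 UMIs.

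The barcodes with under 500 genes, which the comparisons left out, also held UMIs of these genes. With GFP at day 3, 731 such barcodes held 18 UMIs of Gata4, 7 of Nkx2-5 and 10 of Mef2c. With TBX18 at day 3, 292 such barcodes held 10 UMIs of Gata4 and 4 of Nkx2-5. Each of these counts lay above the 3 counts that a total of 0 allows. For Nkx2-5 this was 1.34 CPM (0.540 to 2.77) with GFP, above the 0.319 CPM of compartment 2. With TBX18 it was 1.35 CPM (0.368 to 3.46), an interval that held the 0.584 CPM of compartment 2. Set against compartment 2, Gata4 and Mef2c lay the other way. Gata4 was at 3.45 CPM and Mef2c at 1.92 CPM in these GFP barcodes, against 33.8 and 12.3 CPM in compartment 2. With TBX18 Gata4 was at 3.37 against 39.4 CPM. The barcodes were placed in neither compartment. Over all kept cells Nkx2-5 was at 11.7 CPM with GFP and 23.5 CPM with TBX18, so beside these it too was lower in the barcodes.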

How the results depend on the processing

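No paired analysis was possible because each group had 1 library, and for the same reason no library could be left out of a group. The alternative that took cell classes from marker genes was not run, since no marker matched an ID, and the planned lists were not run either. Clustering at resolution 0.5 or 2 moved no log2 ratio between libraries or compartments beyond its counting interval. Across 558 recomputed values, 351 stayed within the interval of the main value or within 1.5 times a count, 205 moved beyond it, and 2 reversed. Of the moved values, 99 were shares of cells, 49 of them without thinning and 42 at 10000 UMIs, and 23 were counts of genes higher and 23 of genes lower, at another fold, minimum level or scaling.

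Among the log2 ratios between libraries and between compartments, median-of-ratios scaling moved the most. TBX18 over GFP at day 3 became 0.34 for Gata4, 1.23 for Nkx2-5 and 0.79 for Mef2c in compartment 1 and 0.30 for Gata4 in compartment 2. At day 14 it became 0.22, 0.049 and 0.46 for the same 3 genes in compartment 1, and -0.22 for Gata4 and 0.10 for Mef2c in compartment 2. A83-01 over TBX18 became 0.18 for Gata4, which reversed, -0.56 for Nkx2-5, -0.020 for Mef2c and -0.47 for Tbx5 in compartment 1, and 0.90 for Gata4 in compartment 2. Day 14 over day 3 with GFP became 0.41, 1.43 and 0.64 for Gata4, Nkx2-5 and Mef2c in compartment 1. With TBX18 it became 0.29, 0.25, 0.30 and 0.75 for Gata4, Nkx2-5, Mef2c and Tbx5, and in compartment 2 it became 0.060 for Gata4 and 0.95 for Mef2c. For compartment 1 over compartment 2, Gata4 became 1.32, 1.34, 1.19, 1.62 and 0.98 and Mef2c 2.78, 3.99, 3.04, 3.40 and 3.74 in the order of the libraries, and with A83-01 Nkx2-5 became 6.10 and Tbx5 3.72. This alternative rescales every gene of a comparison by 1 factor.

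Without doublet removal, Mef2c in compartment 1 became 0.65 for TBX18 over GFP at day 3, -0.34 for A83-01 over TBX18, and 0.66 and 0.63 for day 14 over day 3 with GFP and TBX18. Gata4 there became -0.092 for A83-01 and 0.61 for day 14 over day 3 with TBX18. Between compartments, Mef2c became 3.57 with TBX18 at day 3, 2.63 with GFP and 3.06 with TBX18 at day 14, and Gata4 1.33 with TBX18 at day 14. Where all libraries were held to the day 14 limits on genes and UMIs, TBX18 over GFP at day 3 in compartment 1 became 0.31 for Gata4 and 0.77 for Mef2c. Between compartments, Nkx2-5 became 5.42 and Mef2c 2.39 with GFP at day 3, and Gata4 1.18 with TBX18 at day 3. Without cells of 5 or more transgene UMIs, TBX18 over GFP at day 3 became 0.37 for Gata4, 1.23 for Nkx2-5 and 0.83 for Mef2c.

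With at least 2 transgene UMIs in place of any, the ratio of cells with over cells without became -0.80, -0.43, -0.35 and -0.49 for Gata4, Nkx2-5, Mef2c and Tbx5 with TBX18 at day 3. It became -0.12 for Gata4 and 1.10 for Nkx2-5 with TBX18 at day 14, -0.042 for Mef2c with GFP at day 3, and -0.21 for Mef2c with A83-01. The last of these reversed a ratio whose interval had excluded 0, to one whose interval reached 0, and the Gata4 and Mef2c values before it changed sign from ratios whose intervals had held 0. Without matching on depth, Mef2c with GFP at day 3 became 0.20. Unless stated, the cause of these moves was not tested. Nkx2-5 and Tbx5 in compartment 2 rest on 9 to 138 UMIs per library, which limits every ratio that uses them.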

Other observations

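Cells of 3 small clusters within compartment 2 had levels of the 4 genes unlike the rest of it, and were picked out after their values were seen. Cluster 18, with 396 cells, had Gata4 at only 2.27 CPM (1.34 to 3.58) beside a median of 43.4 CPM over the compartment's larger clusters, while Mef2c was at 23.3 CPM (20.05 to 26.9). It held 0 UMIs of Tbx5. Cluster 22, with 305 cells, had Gata4 at 7.80 CPM (5.05 to 11.5), 0 UMIs of Tbx5 and Mef2c at 63.7 CPM (55.2 to 73.0), the highest Mef2c level among the larger clusters of the compartment. Mef2c was thus present in cells in which Gata4 was low and neither Nkx2-5 nor Tbx5 exceeded 2.19 CPM.

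Cluster 30 held 57 cells, all from the TBX18 library at day 14, and had Gata4 at 68.2 CPM, Mef2c at 65.3 CPM, Nkx2-5 at 21.8 CPM and Tbx5 at 7.25 CPM, with a median of 8580 UMIs per cell. Without it, the Nkx2-5 level of compartment 2 in that library was 0.845 CPM (0.679 to 1.04) in place of 0.979 CPM, and the Tbx5 level was 1.25 CPM in place of 1.29 CPM. Whether these cells were mixtures of cells was not tested.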
